A study of Mus musculus with 12 samples.

Results

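The genes described here are Cpne1, Ano3, Gm45717, Golph3l and Inka2, 5 of the 55900 gene identifiers in the count tables of this series. They were chosen by their fold change, that is for a large difference between Prx-cKO and wild-type (WT) forelimbs. Each symbol matched 1 row of each table. Because the forelimb comparison chose them, their forelimb values are given as a description with no test. The bone marrow cultures of the same series played no part in the choice and carry the tests.

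The series measured messenger RNA by RNA sequencing in 12 libraries, 2 in each of 6 groups. The forelimb groups were WT embryos and embryos with Impdh2 deleted in limb mesenchymal progenitors (Prx-cKO), both at stage E12.5. The culture groups came from bone marrow, WT or with a myeloid Impdh2 deletion (LysM-cKO), each under the titles R40D3 and R0D3. Marrow cells had been grown for 3 days with a supernatant worth 20 ng/ml of M-CSF, and the protocol then adds 40 ng/ml of RANKL, the cytokine that drives osteoclast formation. The labels do not spell out R40 and R0, so the titles are kept as names. Neither the strain, nor the floxed or Cre alleles of the controls, nor pooling of animals is given in the sources used here. A Prx-driven Cre acts in limb mesenchyme, so skin, vessel, nerve, muscle and blood cells of the harvested forelimb keep Impdh2. Replicates carry numbers only, so p-values measure the spread between these libraries, which may be technical.

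Cpne1 encodes a copine, a cytosolic protein that binds membrane phospholipids when calcium rises. Ano3 encodes an anoctamin, of a family of membrane proteins that includes calcium-activated chloride channels and phospholipid scramblases. Golph3l is the paralog of Golph3, which binds phosphatidylinositol 4-phosphate on Golgi membranes and helps keep glycosyltransferases there. Inka2 encodes an inhibitor of the kinase PAK4, which acts on the actin cytoskeleton, and has been described as a target of the transcription factor p53. Gm45717 is a predicted gene whose only annotated transcript joins an exon of Ifitm2 to an exon of Ifitm5, as a readthrough of neighbouring genes. IFITM2 belongs to the interferon-induced transmembrane proteins, and IFITM5 is its bone-restricted relative. Impdh2, the deleted gene, encodes the rate-limiting enzyme of guanine nucleotide synthesis.

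The loci decide how the counts of these genes can be read. In the GENCODE annotation of GRCm38, Cpne1 (ENSMUSG00000074643) lies on the minus strand at chr2:156071842-156111965. Its exons cover 4507 bases, of which only 718 (15.9%) belong to no other gene. Another annotated gene, Gm28036 (ENSMUSG00000098950, chr2:156071845-156127092, minus strand), shares 3755 of those bases, or 83.3% of Cpne1. All 8 Gm28036 transcripts are tagged as readthrough, as are 11 of the 18 Cpne1 transcripts and all 5 Rbm12 transcripts. The counts of Cpne1 and Gm28036 are thus no split of ordinary from readthrough transcripts. The 5823 exonic bases of Gm28036 include none of its own, since all are also exons of Cpne1, Rbm12 or Nfs1. Gm45717 (ENSMUSG00000110104, chr7:140949222-140955937, minus strand) has 495 exonic bases and none of its own. Of these, 268 lie in an Ifitm2 exon and 227 in an Ifitm5 exon. A read inside a shared exon could come from either gene, and only a read across the joining junction is particular to the readthrough.

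Below is 1 junction for each readthrough gene, from the GENCODE transcripts. Each is 20 bases of the first exon in lower case followed by 20 bases of the second exon in capitals. The Gm28036 junction is taken from 1 of its 8 transcripts. Other exons of Gm28036 lie on exons of Nfs1, so this junction need not mark every Gm28036 transcript. The Gm45717 junction skips 6221 bases between Ifitm2 and Ifitm5, and the Gm28036 junction skips 16953 bases between Rbm12 and Cpne1.
Gm45717, Ifitm2 exon to Ifitm5 exon: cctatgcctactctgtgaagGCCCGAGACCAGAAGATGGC
Gm28036, Rbm12 exon to Cpne1 exon: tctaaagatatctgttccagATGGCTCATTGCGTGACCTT

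The other members have loci largely to themselves. Ano3 (ENSMUSG00000074968, chr2:110655201-110950923, minus strand) holds 7157 of its 7218 exonic bases alone (99.2%), and 61 bases overlap the opposite-strand gene Muc15. Golph3l (ENSMUSG00000046519, chr3:95588934-95619247, plus strand) holds 2677 of 2841 bases alone (94.2%) and shares 164 with Gm42671. Inka2 (ENSMUSG00000048458, chr3:105704599-105720842, plus strand) has 4781 exonic bases, and no other gene overlaps any of them. Counts of these 3 genes therefore rest mostly, and those of Inka2 wholly, on sequence that the annotation assigns to 1 gene.

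**Figure D1:**
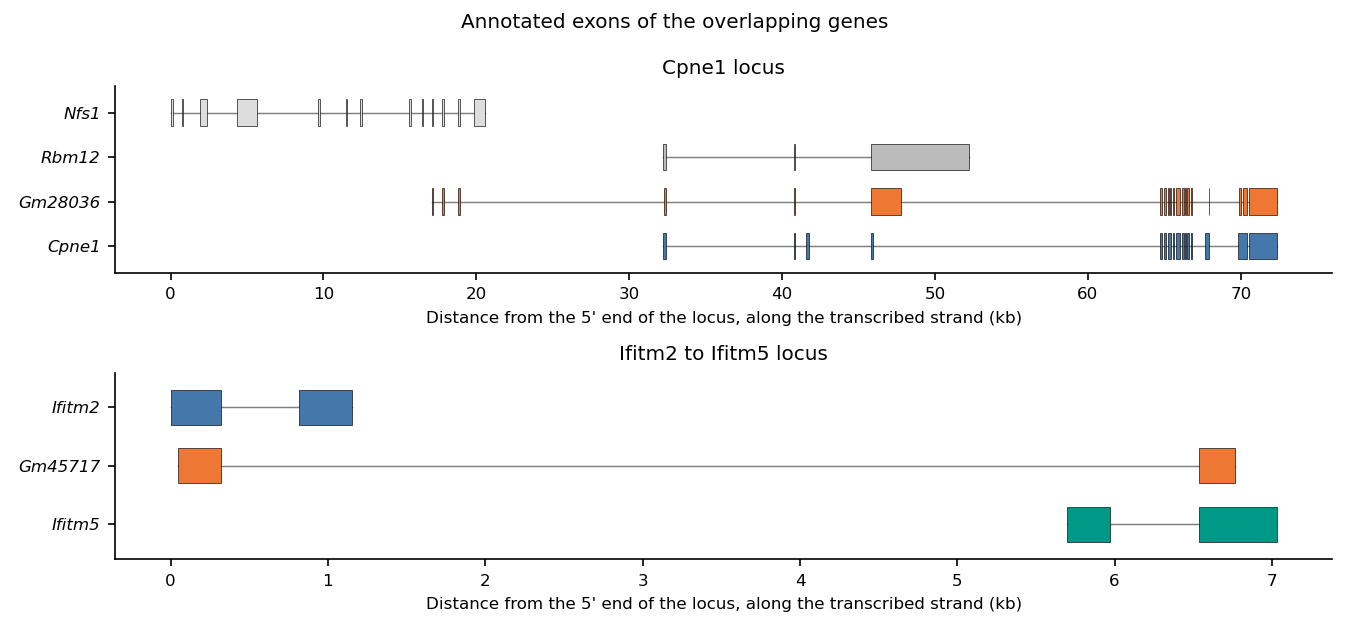
Annotated exons (boxes) and gene spans (lines) of the genes that overlap Cpne1 (top) and Gm45717 (bottom), against distance from the start of the locus along the transcribed strand, in kb. Every exon of Gm28036 lies on an exon of Nfs1, Rbm12 or Cpne1, and both exons of Gm45717 lie on exons of Ifitm2 and Ifitm5.

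Promoters of 3 members are shown because Cpne1 uses the same annotated start as Rbm12, and because Golph3l and Inka2 were well counted in both tissues. Each window runs from 250 bases before to 50 bases after an annotated start (RefSeq, GRCm38.p6). Capitals mark 1 motif per window, found on either strand. In the Golph3l window they mark CCAAT, in the second Inka2 window a p53 decamer (one arm of the p53 response element), and in the Cpne1 window the overlapping GC boxes GGGCGG.
Golph3l, chr3:95588684-95588983, plus strand: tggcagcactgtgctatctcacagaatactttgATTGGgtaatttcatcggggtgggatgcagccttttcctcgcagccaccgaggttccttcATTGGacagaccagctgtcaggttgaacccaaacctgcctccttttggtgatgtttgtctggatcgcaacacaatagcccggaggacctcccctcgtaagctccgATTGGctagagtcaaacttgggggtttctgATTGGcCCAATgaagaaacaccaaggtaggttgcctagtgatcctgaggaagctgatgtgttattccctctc
Inka2, chr3:105705208-105705507, plus strand: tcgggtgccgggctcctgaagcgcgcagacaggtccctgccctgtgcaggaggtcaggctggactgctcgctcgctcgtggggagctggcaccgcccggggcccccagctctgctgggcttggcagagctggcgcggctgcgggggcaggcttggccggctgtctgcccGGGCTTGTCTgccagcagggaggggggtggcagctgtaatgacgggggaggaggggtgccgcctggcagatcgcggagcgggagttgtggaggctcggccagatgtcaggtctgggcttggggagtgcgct
Cpne1 and Rbm12, chr2:156111916-156112215, minus strand: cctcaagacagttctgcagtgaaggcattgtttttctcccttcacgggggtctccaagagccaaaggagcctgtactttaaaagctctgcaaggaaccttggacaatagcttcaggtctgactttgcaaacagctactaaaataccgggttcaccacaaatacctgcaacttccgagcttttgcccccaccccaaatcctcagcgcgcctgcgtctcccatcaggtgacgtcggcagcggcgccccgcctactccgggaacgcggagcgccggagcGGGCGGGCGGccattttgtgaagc

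The Golph3l window held 5 CCAAT matches, all within the 250 bases before the start. Among 32851 promoter windows of this length, 37.4% held at least 1 CCAAT and 3.37% held 3 or more. The second Inka2 window held 1 p53 decamer, 81 bases before the start, as did 8.36% of all windows. The first Inka2 window, which is not printed here, held no decamer but 2 CCAAT matches. No member window held the full response element of 2 decamers, which 0.0731% of windows held. The Cpne1 window held 2 GC boxes and each Inka2 window held 1, a motif found in 35.7% of windows. The cAMP response element core TGACG was in the Cpne1 window, in the second Inka2 window and in the first of the Ano3 windows, and in 20.8% of all windows. TATAAA (13.6% of windows) was in the second Ano3 window and the first Inka2 window, and the E-box CACGTG (7.15%) in the first Ano3 window. These are matches of letters in a window, searched after the expression values were known, and no binding was measured.

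The forelimb libraries held 28892215 to 69466572 counts and the cultures 16009146 to 19221865. Impdh2 itself was at 260 and 272 CPM (the usual unit of counts per 1000000 counts of the scaled library total) in the WT forelimbs and at 170 and 199 in the Prx-cKO forelimbs, and in the cultures it was called lower in LysM-cKO at both R40D3 and R0D3. Summed forelimb markers of limb mesenchyme spanned 1284 to 1630 CPM in WT and 813 to 892 in Prx-cKO, with 6 of 8 genes lower, and chondrogenic markers 849 to 960 and 300 to 365, with 7 of 7 lower. Skeletal muscle markers went the other way (304 to 317 and 421 to 855 CPM, 6 of 7 higher), as did myeloid (31.8 to 33.4 and 55.9 to 62.5, 7 of 7 higher) and endothelial markers (127 to 135 and 175 to 177, 6 of 6 higher). Surface ectoderm markers spanned 632 to 779 CPM in WT and 790.5 to 845 in Prx-cKO (6 of 7 higher), and melanocyte markers, at low level, 3.57 to 5.62 and 1.63 to 2.19. Nerve and erythroid sums overlapped between genotypes. In such bulk samples, fewer cells of a type and less RNA per cell cannot be told apart, and the part of this shift in the member values was not tested.

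All 5 members had forelimb groups that did not overlap, beside 43.2% of the 19987 genes tested, and this contrast chose them, so nothing is read from that count. Differences past 1.5 on the log2 scale, in either direction, were found in 2.89% of genes. No gene passed an adjusted p of 0.05 in edgeR's quasi-likelihood test (0% of genes). The unadjusted p was under 0.05 for 2095 genes (10.5%), and DESeq2 called 302 genes. Cpne1 was the member that was lower in Prx-cKO, and the other 4 were higher.

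Cpne1 was at 118 and 105 CPM in WT forelimbs and at 25.3 and 26.1 CPM in Prx-cKO forelimbs, from 4992, 7511, 727 and 1331 counts. Both WT libraries lay far above both Prx-cKO libraries. The mean was 111 ± 9.39 CPM (SD, n = 2) in WT and 25.7 ± 0.54 in Prx-cKO, a 4.34-fold lower level, with a log2 fold change of -2.12 (SE 0.16). Gm28036, which shares most of the Cpne1 exonic bases, was at 3.31 and 12.54 CPM in WT, against 81.8 and 87.5 CPM in Prx-cKO. It thus ran the opposite way. The mean of Cpne1 was 85.6 CPM lower in Prx-cKO and the mean of Gm28036 was 76.7 CPM higher.

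The counts of Cpne1 and Gm28036 together differed far less between genotypes than either did alone. Their sum was 121 and 117 CPM in WT, against 107 and 114 CPM in Prx-cKO. That is 119 ± 2.86 CPM against 110 ± 4.58 (SD, n = 2), or 92.6% of WT, although the Prx-cKO libraries were still the lower ones. The log2 ratio of these sums was -0.11. When all 4 genes linked by shared exons (Cpne1, Gm28036, Rbm12 and Nfs1) were summed before the fit, a step chosen after the data were seen, the log2 fold change was -0.034, beside -2.12 for Cpne1 alone. Gm28036 held 2.73% of the paired counts in WT replicate 1 (exact Clopper-Pearson 95% interval 2.30% to 3.21%) and 10.7% in WT replicate 2 (10.1% to 11.4%). It held 76.4% (74.9% to 77.9%) and 77.1% (76.0% to 78.1%) in the Prx-cKO replicates. These intervals cover counting error only. The split thus differed between the WT replicates too, by less than between genotypes.

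Rbm12, an RNA-binding protein gene, shares 404 bases and the promoter window with Cpne1, and 2182 exonic bases (32.6% of those of Rbm12) with Gm28036. Rbm12 was at 64.4 and 53.1 CPM in WT, against 51.9 and 56.7 CPM in Prx-cKO, and these ranges overlapped. Nfs1, a mitochondrial cysteine desulfurase gene that shares 256 exonic bases with Gm28036, was at 32.9 and 31.3 CPM in WT, against 37.0 and 43.7 CPM in Prx-cKO. The sum of Cpne1, Gm28036, Rbm12 and Nfs1 was 210 ± 11.9 CPM in WT against 205 ± 12.6 in Prx-cKO. The total over the 4 genes therefore differed by less than the spread of the replicates.

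Gm45717 was at 0.614 CPM (26 counts) and 0 CPM (0 counts) in WT forelimbs and at 162 and 168 CPM (4645 and 8578 counts) in Prx-cKO forelimbs. The WT libraries were at or near 0, and the Prx-cKO libraries were among the higher levels of the members. The Prx-cKO mean was 268-fold above WT replicate 1 and at least 3943-fold above WT replicate 2, taking 3 counts (0.0418 CPM) as the floor of that library. The fitted log2 fold change was 9.39 (SE 0.90) and rested on the 26 counts of WT replicate 1. Without that library it was 16.0, and without WT replicate 2 it was 8.07.

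Ifitm2, which shares 268 bases with Gm45717, was at 227 and 184 CPM in WT, against 101 and 99.2 CPM in Prx-cKO. Both Prx-cKO libraries were thus at about the same level below WT, by 106 CPM on the mean, while Gm45717 was higher by 164 CPM. Ifitm5 was low in all 4 libraries, at 3.47 and 1.59 CPM in WT, against 2.50 and 1.61 CPM in Prx-cKO. So the second exon of the Gm45717 model belongs to a gene that was itself counted at a low level in the same libraries. Gm45717, Ifitm2 and Ifitm5 summed to 231 and 186 CPM in WT and to 265 and 269 CPM in Prx-cKO, which is 208 ± 32.3 and 267 ± 2.83 (SD, n = 2), 1.28 times the WT mean. The summed fit gave a log2 fold change of 0.36. Gm45717 made up 0.266% (0.174% to 0.389%) of those counts in WT replicate 1 and 0 of 13320 counts in WT replicate 2, which allows up to 0.0225% (3 counts of the total, the exact upper limit being 0.0277%). It made up 61.0% (59.9% to 62.1%) and 62.5% (61.7% to 63.3%) in the Prx-cKO replicates.

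**Figure D2:**
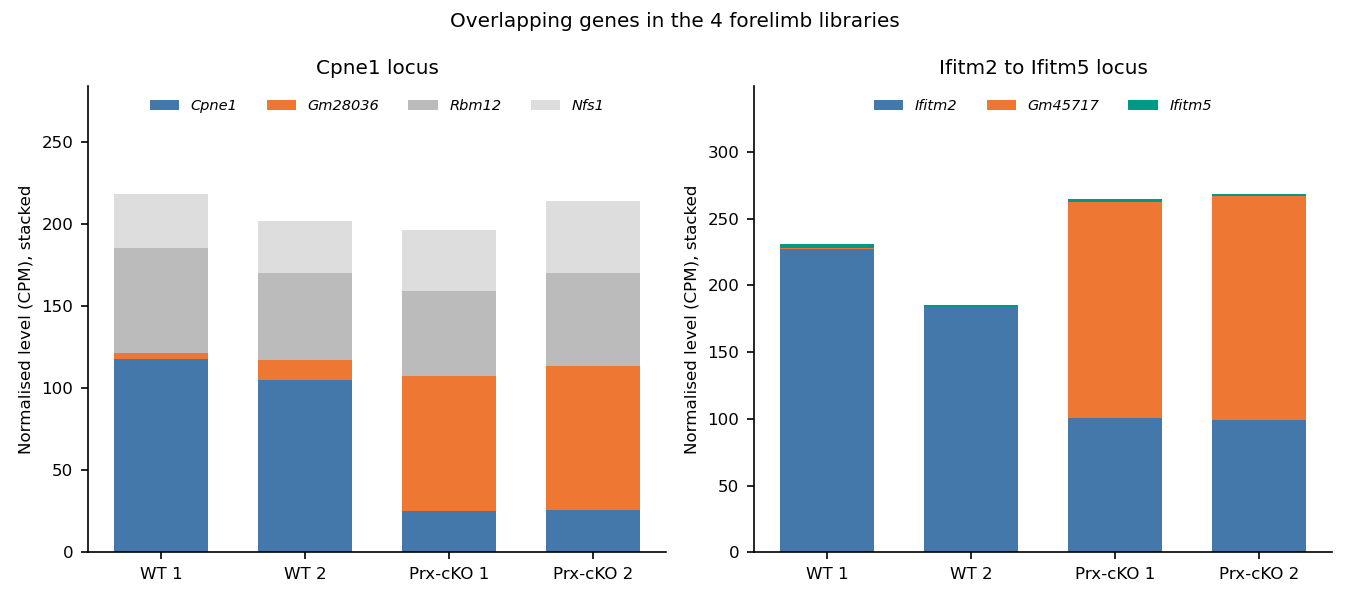
Stacked CPM of overlapping genes in the 4 forelimb libraries (WT 1, WT 2, Prx-cKO 1, Prx-cKO 2), with the Cpne1 locus on the left and the Ifitm2 to Ifitm5 locus on the right. Bars have similar height in all 4 libraries at the Cpne1 locus, with Gm28036 at 3.31 and 12.54 CPM in WT, against 81.8 and 87.5 CPM in Prx-cKO, and at the other locus Gm45717 appears almost only in the Prx-cKO bars.

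Ifitm3, a related antiviral gene nearby on the same chromosome, was at 16.7 and 13.4 CPM in WT, against 34.0 and 32.1 CPM in Prx-cKO. Its transcript aligns to that of Gm45717 over 276 bases with 80.1% identity and to that of Ifitm2 over 363 bases with 82.9% identity. How the authors' counting treated reads that fit more than 1 gene is not given in the sources used here, so the level of Gm45717 is uncertain in a way the replicates do not show.

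Genes with no exonic base of their own were more variable than others in these forelimb libraries, a description made after the member values were seen. Of 164 such genes tested, 24 (14.6%) differed by more than 1.5 on the log2 scale, 13 higher and 11 lower. Among 12792 genes whose exonic bases are all their own, 345 (2.70%) did. The WT replicates also differed more from each other there, with a median absolute log2 ratio of 0.94 against 0.33 over all genes. Unadjusted p values under 0.05 came to 7.32% of the 164, below the 10.5% over all genes tested. Gm45717 and Gm28036 had the highest Prx-cKO levels of the 24. Many of the others were counted at low CPM, where log2 ratios vary widely, and the sets were not matched for level. The part of shared exons in this spread was not tested.

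Ano3 was at 0.236 and 0.348 CPM (10 and 25 counts) in WT forelimbs and at 9.46 and 8.98 CPM (272 and 459 counts) in Prx-cKO forelimbs. It was close to the detection floor in WT and readily counted in both Prx-cKO libraries. The means were 0.292 ± 0.079 CPM and 9.22 ± 0.34 (SD, n = 2), a 31.6-fold higher level, with a log2 fold change of 4.91 (SE 0.38). Per kilobase of exon this was 0.0405 and 1.28 CPM. The overlap with Muc15 covers 0.8% of the Ano3 exons, and summing overlapping genes of 1 strand left the value at 4.91.

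Golph3l was at 10.7 and 9.47 CPM (453 and 680 counts) in WT forelimbs and at 32.2 and 36.0 CPM (925 and 1839 counts) in Prx-cKO forelimbs. The 2 groups were well apart relative to their spread. The means were 10.1 ± 0.868 CPM and 34.1 ± 2.70 (SD, n = 2), a 3.38-fold higher level, with a log2 fold change of 1.76 (SE 0.19). Its paralog Golph3 was at 70.7 and 85.1 CPM in WT, against 68.0 and 79.8 CPM in Prx-cKO, overlapping ranges. Per kilobase of exon, the mean level of Golph3 was 6.73 times that of Golph3l in WT (23.9 against 3.55 CPM) and 1.89 times in Prx-cKO, so Golph3l was the lower of the pair in both genotypes. The transcripts of the pair align over only 283 bases, with 74.2% identity.

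Inka2 was at 3.73 and 4.56 CPM (158 and 327 counts) in WT forelimbs and at 19.9 and 19.0 CPM (571 and 970 counts) in Prx-cKO forelimbs. Neither Prx-cKO library came near the WT levels. The means were 4.14 ± 0.582 CPM and 19.4 ± 0.617 (SD, n = 2), a 4.69-fold higher level, with a log2 fold change of 2.22 (SE 0.24). Its relative Inka1 averaged 53.2 ± 4.74 CPM in WT against 66.1 ± 2.49 in Prx-cKO, a log2 fold change of 0.31 (SE 0.16). Per kilobase, Inka1 stood at 46.0 and 57.2 CPM and thus above Inka2 in both genotypes. The Inka1 and Inka2 transcripts gave no alignment.

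**Figure D3:**
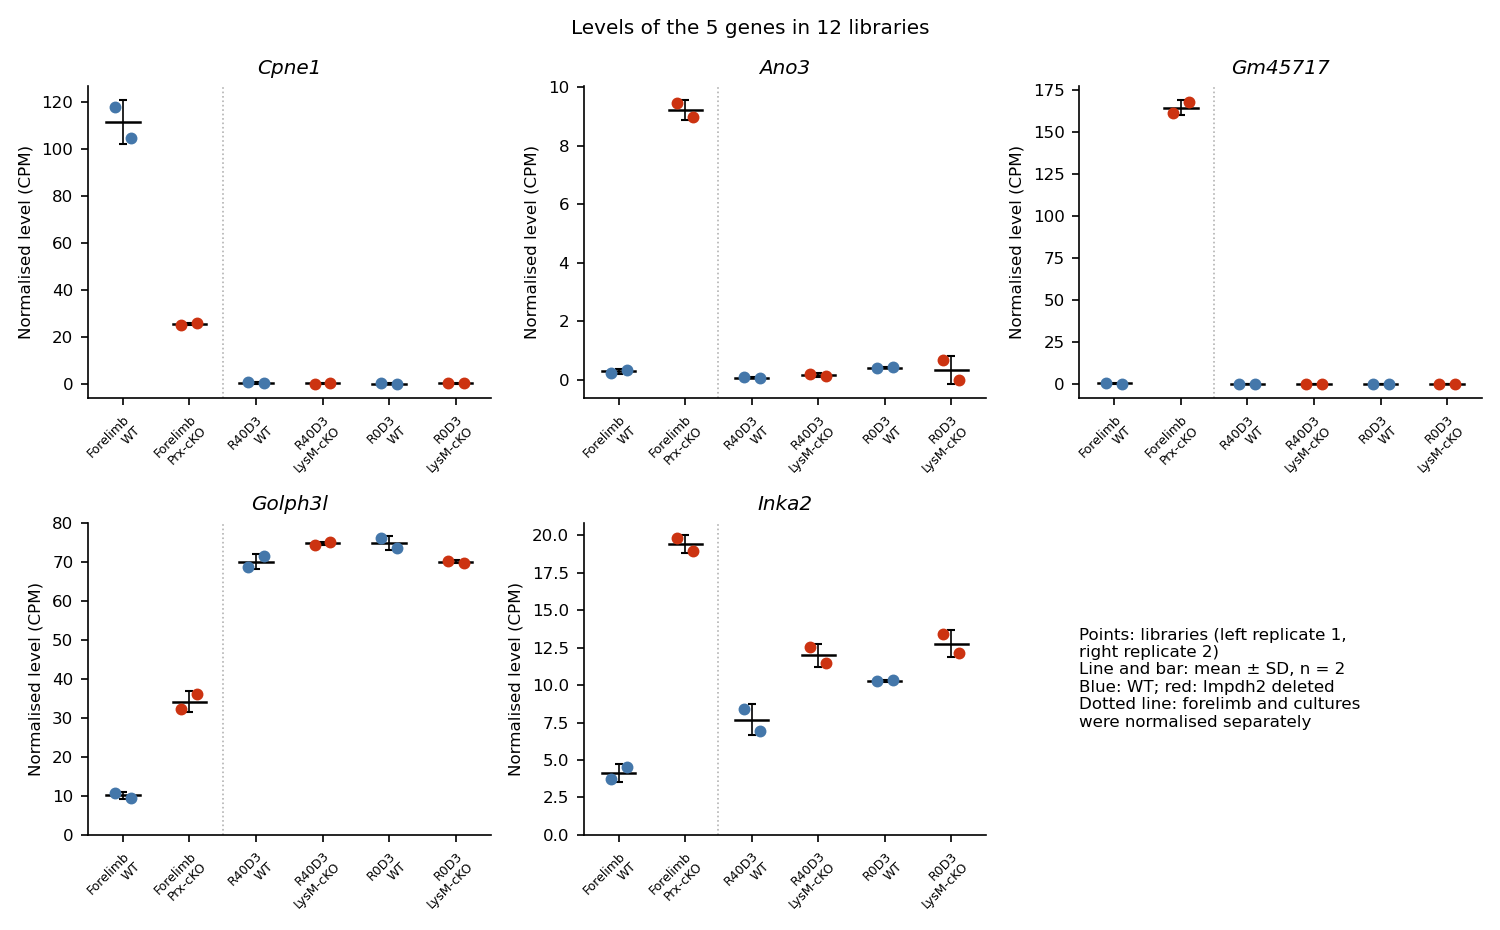
CPM of each member (vertical axes, linear) in the 12 libraries, by group; points are libraries and the line with its bar is the mean ± SD of 2. Cpne1 is the member that is lower in the Prx-cKO forelimbs (25.3 and 26.1 against 118 and 105 CPM), Gm45717 is at 0 in all cultures, and Golph3l is higher in every culture library (68.7 to 76.2 CPM) than in any forelimb library.

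The cultures gave a test of whether the members also differ when Impdh2 is deleted by another Cre in another tissue. Of 14030 genes tested together, 2 (0.0143%) passed an adjusted p of 0.05 in edgeR's quasi-likelihood test at R40D3 and 2 (0.0143%) at R0D3, and no member was among them. At R40D3 1048 genes (7.47%) had an unadjusted p under 0.05, and at R0D3 620 (4.42%). DESeq2 called 16 and 7 genes. Between R40D3 and R0D3, 2367 genes (16.9%) passed in WT and 1422 (10.1%) in LysM-cKO, again with no member. These edgeR fits left out the replicate number, which pairs the culture libraries. With that number as a block, LysM-cKO against WT gave 30 calls at R40D3 and 3 at R0D3, no member among them. The unadjusted edgeR p was then under 0.05 for 2600 and 1476 of the 14030 genes. Cpne1, Golph3l and Inka2 were tested, and Ano3 and Gm45717 had too few counts to enter the test. Levels in forelimb and cultures were normalised separately, so they are set side by side below with no test between them.

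Golph3l was steady in the cultures, between 68.7 and 76.2 CPM in all 8 libraries (median 72.6, coefficient of variation 3.82%). At R40D3 it was at 74.4 and 75.0 CPM in LysM-cKO and 68.7 and 71.5 in WT. The log2 fold change was 0.09 (SE 0.08, adjusted p = 0.745 by edgeR). At R0D3 it was at 70.2 and 69.7 CPM in LysM-cKO and 76.2 and 73.7 in WT, a log2 fold change of -0.10 (SE 0.08, adjusted p = 0.997 by edgeR). The LysM-cKO libraries were thus the higher ones at R40D3, as in 19.7% of genes, and the lower ones at R0D3, as in 14.8%, and neither difference passed. The difference in genotype effect between R40D3 and R0D3, an interaction term of 0.19 (SE 0.11), did not pass either, and 0% of genes did. The mean over the cultures was 7.18 times the WT forelimb level and 2.13 times the Prx-cKO level.

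Golph3l was thus high in cultures of myeloid cells, and the myeloid markers were higher in Prx-cKO forelimbs. Their summed level there was at most 0.350% of that in the culture library with the least of them, across tables that were normalised separately. Their part in the forelimb level of Golph3l was not tested.

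Inka2 was higher in LysM-cKO at both R40D3 and R0D3 in every library, without passing the test. At R40D3 it was at 12.53 and 11.5 CPM in LysM-cKO and 8.42 and 6.96 in WT. The log2 fold change was 0.64 (SE 0.15), with an unadjusted p of 0.00373 and an adjusted p of 0.648 in edgeR. At R0D3 it was at 13.4 and 12.1 CPM in LysM-cKO and 10.3 and 10.3 in WT, a log2 fold change of 0.31 (SE 0.15, adjusted p = 0.997 by edgeR). A gap in that direction with no overlap was found in 19.7% of genes at R40D3 and 17.5% at R0D3. With the replicate number as a block, the edgeR adjusted p at R40D3 was 0.106. In WT cultures, Inka2 was lower at R40D3 than at R0D3, with a log2 fold change of -0.41 (SE 0.16, adjusted p = 0.121 by edgeR).

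Cpne1 was barely counted in the cultures, with 3 to 16 counts per library (0.187 to 0.837 CPM), and the WT forelimb mean was 242 times the culture mean. Its log2 fold change was -0.41 (SE 0.54, adjusted p = 0.844 by edgeR) at R40D3 and 0.45 (SE 0.68, adjusted p = 0.997 by edgeR) at R0D3. Gm28036 had 0 to 8 counts per culture library, so the split of counts between the genes was poorly measured there.

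Ano3 had 0 to 12 counts per culture library, at most 0.690 CPM and below both Prx-cKO forelimb libraries. Gm45717 had 0 counts in all 8 culture libraries, although Ifitm2 was at 247 to 393 CPM there. Its share of the counts of Gm45717, Ifitm2 and Ifitm5 was 0 of 4068 to 0 of 7527 counts, which allows up to 0.0738% and 0.0399% (3 counts of the total, the exact upper limits being 0.0906% and 0.0490%). Ifitm2 itself gave log2 fold changes of -0.35 (SE 0.10, adjusted p = 0.648 by edgeR) at R40D3 and -0.23 (SE 0.10, adjusted p = 0.997 by edgeR) at R0D3. Ifitm5, which holds the second exon of Gm45717, had 6, 0, 1 and 0 counts in the 4 LysM-cKO cultures. So Ifitm2 was well covered there and Ifitm5 barely, and no count was assigned to the gene that joins them.

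**Figure D4:**
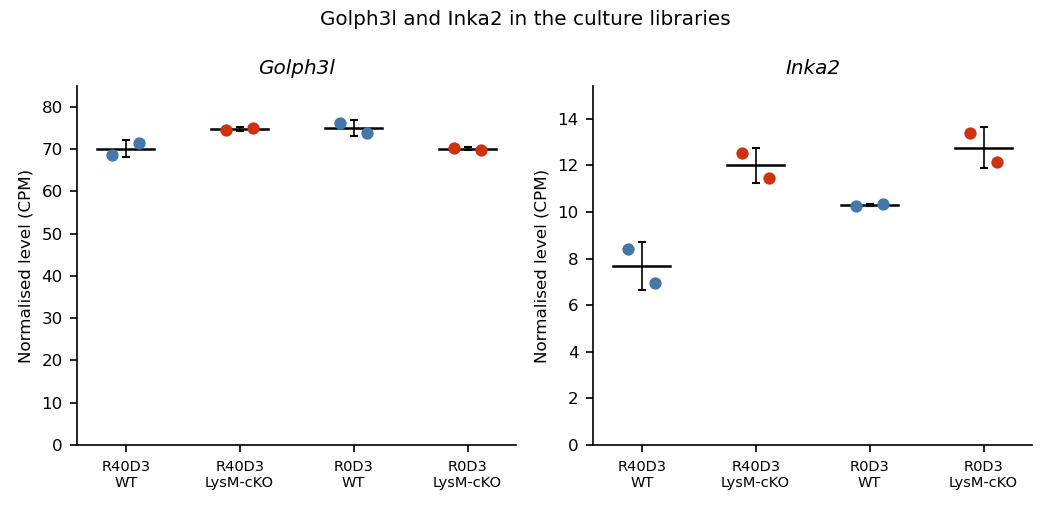
CPM of Golph3l and Inka2 (vertical axes from 0) in the 8 culture libraries, by culture title and genotype. Points are libraries and the line with its bar is the mean ± SD of 2. Inka2 is higher in LysM-cKO than in WT in every library of R40D3 and of R0D3, and Golph3l stays between 68.7 and 76.2 CPM.

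Ordered by mean level, Cpne1 was highest in WT forelimb, then in Prx-cKO forelimb, and the 4 culture groups followed with ranges that overlapped from one to the next. Ano3 stood at the top in Prx-cKO forelimb, and below it R0D3 WT, R0D3 LysM-cKO and WT forelimb followed with overlapping ranges. Both R40D3 groups came last by mean, but the R0D3 LysM-cKO range (0 to 0.690 CPM) took in all their values. Golph3l was highest in R0D3 WT and R40D3 LysM-cKO, whose ranges overlapped, then came R40D3 WT and R0D3 LysM-cKO, also overlapping, and Prx-cKO and WT forelimb came last. Inka2 ran from Prx-cKO forelimb through the LysM-cKO cultures, which overlapped each other, to R0D3 WT, R40D3 WT and WT forelimb. The forelimb places in these orders are the values that chose the members, and forelimb and cultures were normalised separately.

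Neighbouring genes show whether a whole stretch of chromosome moved with a member. The 5 nearest tested genes on each side of Cpne1 had a median log2 fold change of 0.06, and 5 of 10 were lower, as Cpne1 was. Gdf5, a growth factor of joint development 127 kb away, was the furthest from 0 at -2.29 (SE 0.28). Around Ano3 the median was -0.15, and 4 of 10 were higher, with the low-level gene Bbox1 at -2.10 (SE 0.77). Around Gm45717 the median was 0.24 with 7 of 10 higher, the furthest being Ifitm3 at 1.14 (SE 0.20). Around Golph3l the median was -0.16 and 3 of 10 were higher, with the protease gene Ctsk at 0.67 (SE 0.27). Around Inka2 the median was -0.20 and 3 of 10 were higher, with Adora3 at -1.76 (SE 0.69). None of these neighbours was called, and the median over all 19987 genes was -0.03, with 47.2% higher.

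**Figure D5:**
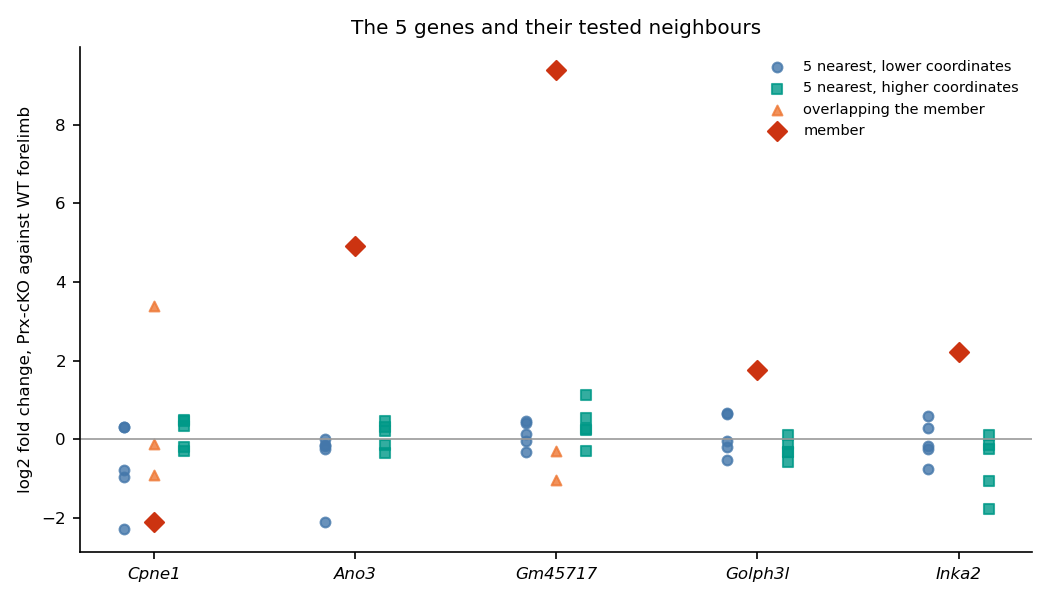
Log2 fold change, Prx-cKO against WT forelimb, of each member (diamond), the 5 nearest tested genes at lower and at higher coordinates (circles, squares) and the genes whose span overlaps the member (triangles). Each member lies outside the range of its 10 neighbours except Cpne1, where Gdf5 lies at -2.29, and Gm28036 is the triangle at 3.39. The member values are those that chose the members, so nothing is read from their place outside the range.

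Golph3l and Inka2 lie 10.1 Mb apart on chromosome 3. The 159 tested genes between them had a median log2 fold change of -0.14, and 11 (6.92%) were past 1 in either direction, beside 8.39% of all genes. Ano3 and Cpne1 lie 45.1 Mb apart on chromosome 2, with 446 tested genes between them, a median of 0.02 and 38 (8.52%) past 1. In the narrower window of 1 Mb to each side, 7 of 55 genes around Cpne1 (12.7%), 1 of 6 around Ano3 (16.7%) and 3 of 29 around Inka2 (10.3%) were past 1. Around Gm45717 it was 6 of 64 (9.38%), and around Golph3l 3 of 98 (3.06%). Unlike the nearest neighbours above, these windows include genes that share exons with the member. Among those past 1 were Gm28036 (3.39) around Cpne1 and Ifitm2 (-1.04) around Gm45717. The strain background of the WT and Prx-cKO embryos at these loci was not tested, since count tables hold no alleles.

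The families of the members were listed with earlier results of these data known. Of 7 other copine genes tested, 3 were higher and none was called in edgeR (1 had an unadjusted p under 0.05), with a median log2 fold change of -0.16. Cpne3, a widely expressed copine, averaged 54.1 ± 8.34 CPM in WT against 48.3 ± 0.414 in Prx-cKO, and Cpne7 at 0.935 ± 0.415 and 3.54 ± 1.05. Cpne2 had a log2 fold change of 0.48 (SE 0.24), Cpne5 of 0.42 (SE 0.28) and Cpne8 of -0.20 (SE 0.35).

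Of 9 other anoctamin genes tested, 4 were higher and none was called (1 at an unadjusted p under 0.05), with a median of -0.02. Ano1, a calcium-activated chloride channel gene, had a log2 fold change of 0.90 (SE 0.37), and Ano10 one of 0.72 (SE 0.21), from 16.9 to 27.8 CPM. Ano7 and Ano9 were at -0.51 (SE 0.58) and -0.47 (SE 0.54). Ano4, the closest relative of Ano3, stayed at 0.378 ± 0.234 CPM in WT against 0.281 ± 0.102 in Prx-cKO.

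Of 11 other genes of the GOLPH3 and Golgi phosphatidylinositol 4-phosphate list, 5 were higher and none was called (1 at an unadjusted p under 0.05), with a median of -0.01. Sacm1l, the phosphatase that removes this lipid, averaged 57.4 ± 1.85 CPM in WT against 43.6 ± 1.43 in Prx-cKO, a log2 fold change of -0.40 (SE 0.15). Osbp, an oxysterol-binding lipid exchanger, had one of -0.30 (SE 0.15), and Myo18a and Arf1 were both at 0.24 (SE 0.41 and 0.16). The list ranged from -0.40 to 0.24. Of 8 other INKA and PAK genes, 4 were higher and none was called (0 at an unadjusted p under 0.05), with a median of 0.01. Pak4, the kinase that Inka2 inhibits, averaged 67.7 ± 7.36 CPM in WT against 86.8 ± 15.3 in Prx-cKO, and Pak6 and Pak3 had log2 fold changes of 0.31 (SE 0.35) and -0.29 (SE 0.22).

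The p53 targets were the list whose median lay furthest from that of all genes. They too were listed with earlier results known, so their direction is no independent evidence. Of 16 genes, 14 were higher in Prx-cKO forelimbs, with a median log2 fold change of 1.35. None was called in edgeR, and 12 had an unadjusted p under 0.05, all higher, beside 5.87% of all genes tested. Eda2r, a death-receptor family gene, averaged 1.40 ± 0.715 CPM in WT against 33.7 ± 4.95 in Prx-cKO, and Ptprv at 1.71 ± 0.109 and 30.5 ± 1.40. Ccng1, encoding cyclin G1, was at 38.1 ± 0.886 and 188 ± 3.14 CPM, and Cdkn1a, encoding the cell-cycle inhibitor p21, at 25.3 ± 0.793 and 110.5 ± 5.17. The Inka2 log2 fold change of 2.22, the value that chose it, lay between those of Cdkn1a (2.12) and Ccng1 (2.31). The list was not uniform, ranging from -0.15 to 4.53, and the genes named are those furthest from 0. In the cultures the same list had a median of 0.18 at R40D3, where 7 genes had unadjusted p values under 0.05, and of 0.23 at R0D3, where 2 did. All of these were higher, beside 4% and 3.02% of all genes with such a p in that direction. None was called in edgeR there either.

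Likeness of pattern was measured as Pearson's r of log2 CPM over the 12 libraries after the mean of each tissue was removed, among 19795 genes. It is a description, since the libraries of a group share their genotype and tissue. The forelimb differences that chose the members enter every r, so genes with a like forelimb difference can rank high through that alone. The genes most like Inka2 were Ccng1 (r = 0.979), Cdkn1a (0.965) and Abcb1b (0.962), a drug efflux pump gene. In Prx-cKO against WT forelimbs Ccng1 stood at 191 and 186 against 38.7 and 37.5 CPM, and Abcb1b at 7.44 and 6.24 against 1.82 and 2.26. Only 7 genes had r over 0.95 with Inka2. The cultures are among the 12 libraries behind r, so their values add no separate support. At R40D3, LysM-cKO against WT, Cdkn1a had a log2 fold change of 0.51 (SE 0.14) and Ccng1 of 0.31 (SE 0.08). At R0D3 these were 0.40 (SE 0.14) and 0.12 (SE 0.08). Neither gene passed in edgeR (adjusted p = 0.648 for both at R40D3 and 0.997 for both at R0D3).

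Golph3l was most like the small RNA genes Gm23946 and Gm23202 (both r = 0.995) and the growth factor gene Fgf8 (0.995), all at 0 in every culture library, so the likeness rests on the 4 forelimb libraries. Gm45717 was most like Pax2 (0.999), Cpz (0.998) and Sim2 (0.998) for the same reason, and 99 genes exceeded 0.95. Ano3 was most like Mepce (0.963), Ms4a7 (0.952) and Mark4 (0.946), with 2 genes over 0.95. The size of a change does not enter r, and Mepce had a forelimb log2 fold change of 0.22 beside 4.91 for Ano3. Ms4a7, a macrophage membrane protein gene, was at 0.591 and 0.808 CPM in WT forelimbs, 2.64 and 3.29 in Prx-cKO forelimbs and 587 to 1013 in the cultures, where Ano3 was at most 0.690. Cpne1 was most like Pax9 (0.905), Scnn1a (0.904) and Slc13a4 (0.904), with none over 0.95.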

How the data were processed

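RNA sequencing of 12 mouse libraries was analysed from the read counts per gene that the authors deposited, with 4 forelimb libraries in one table and 8 culture libraries in the others. Per the submitters' processing notes, FastQC 0.11.2, Trimmomatic 0.36, HISAT2 2.1.0, DESeq2 1.12.4 and the build GRCm38 were used. The counting tool, its annotation and its strand setting are not given in the sources used here. Members and lists were chosen with earlier results of these data known. Genes named are the members, Impdh2, genes with overlapping exons, the 5 nearest tested neighbours on each side, up to 4 genes per list with the largest difference at 1 CPM or more plus the closest paralog, and the 3 genes of most similar pattern.

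Counts were filtered with filterByExpr, scaled by TMM and fitted with edgeR 4.0.16 (quasi-likelihood, two-sided, Benjamini-Hochberg over all genes tested, threshold 0.05), forelimb and cultures apart. CPM use TMM-scaled library sizes, and log2 CPM a prior count of 2. Symbols were found for 99.6% of forelimb and 99.5% of culture identifiers. Exon overlaps came from GENCODE for GRCm38, promoters from RefSeq. DESeq2 1.42.0 and other settings served as alternatives. Simulated data had 200 genes changed by 2 on the log2 scale and every gene's spread set on the fitted trend. There the fit recovered 136 in the forelimb design, with 1 false call among 19420 genes tested. In the R40D3 comparison it recovered 190, with 19 false calls beside them among 13789 genes tested. Spreads that vary by gene were not simulated, so these rates need not hold for the real libraries, where the forelimb fit called 0. Same-numbered culture libraries deviated together in all 6 pairs of groups (r = 0.343 to 0.609), so their numbers pair them. The main culture fit left this pairing out, and the replicate block, an alternative setting, used it. The forelimb groups give 1 pair (r = 0.261), too few to say.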

Additional observations from a re-analysis of the deposited data

Results flagged for a closer look

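For Golph3l, the groups lay apart in opposite directions in the forelimbs and in the R0D3 cultures, and the culture difference was not shown by its test. Both Prx-cKO forelimbs (32.2 and 36.0 CPM) lay above both WT forelimbs (10.7 and 9.47 CPM), with a log2 fold change of 1.76, the value that chose the gene. Both LysM-cKO cultures at R0D3 (70.2 and 69.7 CPM) lay below both WT cultures (76.2 and 73.7 CPM), as was so for 14.8% of all genes, with a log2 fold change of -0.10 (SE 0.08, adjusted p = 0.997 in edgeR). At R40D3 the log2 fold change was 0.09. The difference between the effects in the 2 tissues was not tested.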

How the results depend on the processing

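Every member kept its direction in the forelimb under the alternatives run, and the sizes moved as follows. Summing genes with shared exons, chosen after the data were seen, gave -0.034 for Cpne1 (with Gm28036, Rbm12 and Nfs1) and 0.36 for Gm45717 (with Ifitm2 and Ifitm5). Scaling by library size alone gave -2.21 for Cpne1. Leaving out each forelimb library in turn gave -2.19 to -2.06 for Cpne1, 4.68 to 5.28 for Ano3, 8.07 to 16.0 for Gm45717, 1.68 to 1.85 for Golph3l and 2.05 to 2.39 for Inka2. Without genes with overlapping exons, Cpne1, Ano3, Gm45717 and Golph3l had no value. Counts of calls moved more. The forelimb count was 302 in DESeq2, 0 with the replicate block, and 0 to 603 with 1 library left out (603 without WT replicate 1, 104 without WT replicate 2). At R40D3, LysM-cKO against WT gave 0 calls with library size alone, 16 in DESeq2, 30 with the replicate block, 0 without genes with overlapping exons, 0 from the 4 libraries alone and 0 to 0 with 1 library left out. At R0D3 it gave 7 in DESeq2, 1 without those genes, 0 from the 4 libraries alone and 0 to 1 with 1 library left out. R40D3 against R0D3 gave 3977 calls in WT with the replicate block (689 to 2425 with 1 library left out, 689 without WT R40D3 replicate 2, 799 and 803 without WT R0D3 replicates 1 and 2). In LysM-cKO it gave 2983 with the block, 938 without genes with overlapping exons, 533 from the 4 libraries alone and 399 to 1317 with 1 left out, namely 399 and 754 without LysM-cKO R0D3 replicates 2 and 1, 475 without LysM-cKO R40D3 replicate 2, and 879 and 877 without WT R0D3 replicates 1 and 2. Cpne1 in the cultures, at 3 to 16 counts, turned sign with 1 library left out, from -0.81 to 0.17 at R40D3 and from -0.19 to 0.57 for R40D3 against R0D3 in LysM-cKO. The cause of these moves was not tested. The replicate block changed no call of a member, and no member passed in the cultures under any setting run. The lowest edgeR or DESeq2 adjusted p was 0.0616, for Inka2 in R40D3 against R0D3 in WT. With 2 libraries a group and few counts for Cpne1, Ano3 and Gm45717 in the cultures, small differences could not be detected.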
